A study of Mus musculus with 4 samples.

Results

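Collagen genes were examined in soleus muscles from mdx mice given mouse cardiosphere-derived cells (mCDCs) or vehicle over a 12-month study period. The members were the rows of the deposited table whose symbol is Col, a number, the letter a and a second number, so that Col4a3bp and the collectins were left out. There were 44 such genes of 24054 listed symbols, from 27 collagen types. They were grouped by type number as 11 fibrillar chains, 8 chains of basement membranes, 3 chains of short-chain networks and 22 other chains.

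All mice were female, carried the mdx mutation of the dystrophin gene and began treatment at 8 weeks of age. The mCDC group received mouse CDCs at passage 5, grown from the heart of 1 female C57BL/10ScSn/J mouse, by femoral vein infusion once monthly until the endpoint. The vehicle group received the culture medium alone on the same schedule, and no mouse without the mdx mutation was part of the comparison. The data are 4 RNA-seq libraries, 2 of mCDC soleus and 2 of vehicle soleus, given here as replicates 1 and 2 of each group. RSEM expected counts, which divide a read among the transcripts it fits, summed to between 22481391 and 27187425 per library. Levels are given as CPM, counts scaled by each library's total times its TMM factor, which ran from 0.972 to 1.045. As markers of the labelled muscle, 7 slow-fiber genes summed to between 73162 and 89748 CPM and 7 fast-fiber genes to between 21056 and 26441. Single fast-fiber genes differed more, and Myh4 had 2096 CPM in mCDC replicate 1 against 47.5 to 411 CPM in the other 3 libraries. Each library is 1 muscle, and fewer cells of a type and less RNA per cell cannot be told apart in whole muscle.

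Collagens are built from 3 alpha chains wound into a triple helix. Fibrillar collagens form the tensile fibers of the endomysium, perimysium and tendon, type IV collagen forms the sheet of the basement membrane around each muscle fiber and capillary, and type VI collagen forms beaded filaments that link the 2 layers. FACITs are collagens that sit on the surface of fibrils. In dystrophic muscle, fibroblasts and fibro-adipogenic progenitors are the main known source of fibrillar collagen, and its deposition is the basis of the picrosirius red stain for fibrosis.

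Per kilobase of the longest annotated transcript, the collagens of fibrils and of the basement membrane were the most abundant in each group. Col3a1, the chain of type III fibrils, averaged 19.5 CPM per kb over the 4 libraries, with a range of 15.4 to 27.2. Col1a2 followed at 14.5 (10.9 to 20.9), Col4a2 at 13.6 (11.3 to 17.3), Col1a1 at 12.6 (10.7 to 17.4) and Col4a1 at 11.8 (9.44 to 15.2), and these ranges overlapped from each gene to the next. Within each library, Col3a1 stood above Col1a2 and Col4a2 above Col4a1, while Col1a2 and Col4a2 changed order between libraries. Col6a1 and Col6a2 came next, at 8.53 and 7.42 CPM per kb, followed by Col15a1 at 4.91. Neighbours in that order overlapped as well, though Col6a1, Col6a2 and Col15a1 kept it within each library. The cartilage chain Col2a1 stood at 0.0913 CPM per kb and Col11a1 at 0.0820. The order depended on the length used. Per kilobase of the mean annotated transcript, Col4a1 averaged 28.1 CPM, above Col1a2 at 25.1 and Col4a2 at 13.6. Of the summed collagen CPM, fibrillar chains took 41.9% to 45.6% in the 4 libraries, basement membrane chains 26.3% to 30.9%, network chains 2.24% to 2.99% and the other chains 24.4% to 27.3%. Each class took a like share in the 4 libraries. All collagen genes summed to 739 and 669 CPM in mCDC replicates 1 and 2, to 711 CPM in vehicle replicate 1 and to 1062 CPM in vehicle replicate 2. The summed level therefore overlapped between the groups, and vehicle replicate 2 stood above the other 3 libraries.

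**Figure D1:**
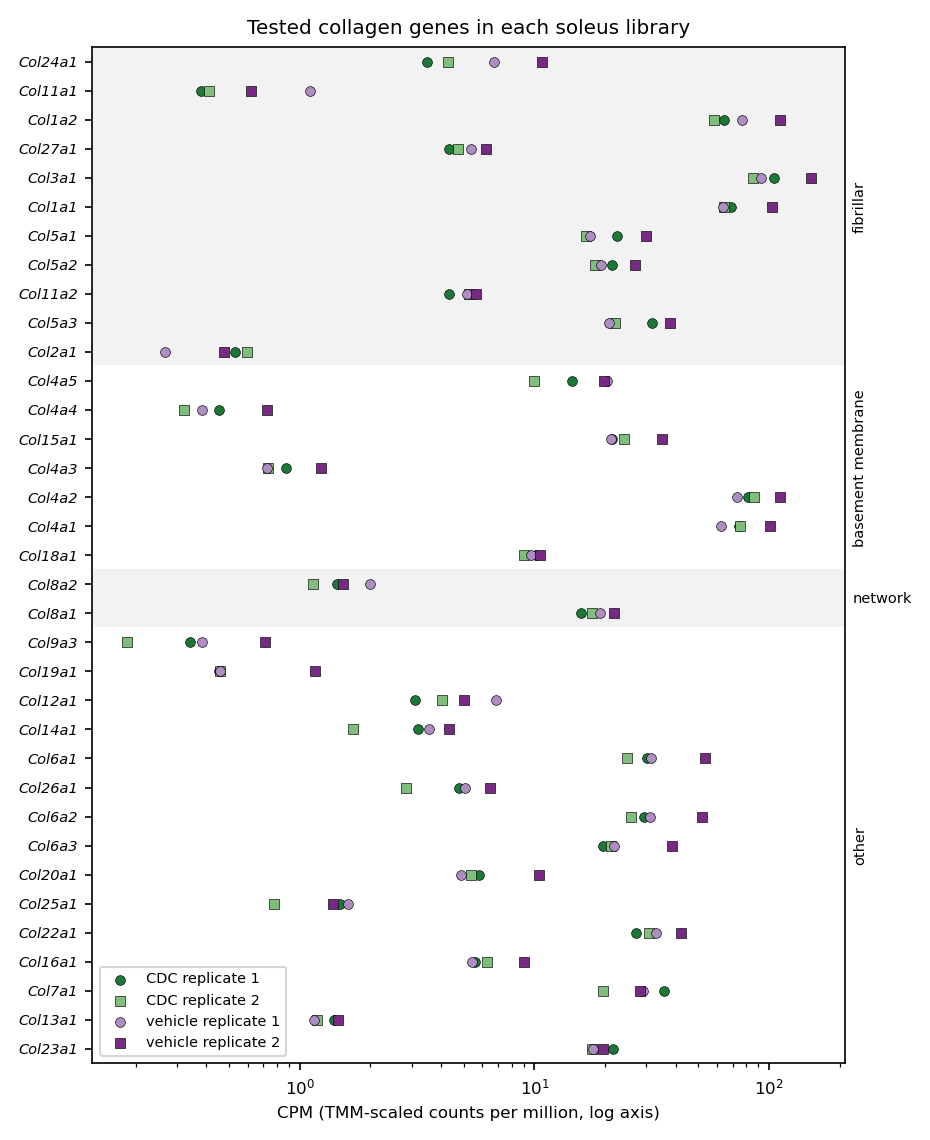
CPM (TMM-scaled libraries, log axis) of the 35 tested collagen genes in each of the 4 soleus libraries, grouped by class and ordered within it by fold change. Each point is 1 library, and vehicle replicate 2 holds the highest value for 27 of the 35 genes.

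To compare the groups, genes with low counts were removed over the whole table, and 35 of the 44 collagen genes remained among 13652 tested genes. The call required an unadjusted p under 0.05 in edgeR's quasi-likelihood test together with a change of more than 1.5-fold. In mCDC muscles, 6 of the 35 collagen genes were called lower, against 2.74% of all tested genes, and 0 were called higher, against 1.26%. The 6 were the fibrillar chains Col24a1 and Col1a2, the basement membrane chain Col4a5, the type VI chains Col6a1 and Col6a2, and the FACIT Col12a1. At an unadjusted p under 0.05 there were 6 collagen genes, the same 6, against 6.94% of tested genes. After Benjamini-Hochberg adjustment 0 collagen genes passed 0.05 in edgeR's quasi-likelihood test, as was the case for 0.00% of all tested genes, and the smallest adjusted p of a collagen was 0.567. DESeq2 called 5 collagen genes lower, against 1.49% of all genes it tested, and 0 higher, with 0 collagens and 48 genes in all under an adjusted p of 0.05. The likelihood ratio test of edgeR called 7 lower, against 3.18% of all genes, with 1 collagen and 66 genes in all under that adjusted p.

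The direction was shared by most members. Of the 35 tested collagen genes, 33 had a log2 fold change below 0, against 51.6% of all tested genes, and the median was -0.36, against -0.0094 over all tested genes. Both mCDC libraries lay below both vehicle libraries for 16 of the 35, against 19.4% of all tested genes, and above both for 1, against 19.2%. Of the 35 tested genes, 3 passed the low-count filter only through the vehicle libraries (Col11a1, Col4a4 and Col9a3) and 1, Col2a1, only through the mCDC libraries. Col11a1 and Col9a3 are among the 16, and Col2a1 is the 1 above. Col19a1 is also among the 16, with 12 counts in both mCDC replicate 1 and vehicle replicate 1. With no filter, 40 of all 44 collagen genes were below 0. With 2 muscles per group, no single gene could reach a two-sided p below 0.333 by exact permutation.

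Vehicle replicate 2 stood apart in these values. It was the highest library for 27 of the 35 collagen genes (77.1%), against 29.4% of all tested genes, and the lowest for 0. Without vehicle replicate 2, the median log2 fold change of the tested collagen genes was -0.018, 20 of 37 were below 0 (48.2% of all genes were), and 4 were called lower, against 2.53% of all genes: Col24a1, Col4a5, Col12a1 and Col11a1. Without vehicle replicate 1, the median was -0.60 and 13 of 39 were called lower, among them Col1a1, Col3a1 and Col5a1, where 5.97% of all genes were called lower. Without mCDC replicate 2, 3 were called lower, against 1.69% of all genes, and Col17a1, which was not tested with all libraries, was called higher. The calls also changed with a correction for transcript length and GC content. The tested collagen genes had a median longest transcript of 6048 bases and 56.7% GC, against 3125 bases and 51.1% for all tested genes. With a smooth trend of each library on both removed, Col24a1 was the 1 collagen of 35 called lower, where 2.14% of all genes were. At an unadjusted p under 0.05 there were still 5, of which Col1a2, Col4a5, Col6a1 and Col6a2 had changes under 1.5-fold. The median was then -0.27, and 30 of the 35 stayed below 0, against 45.1% of all genes.

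**Figure D2:**
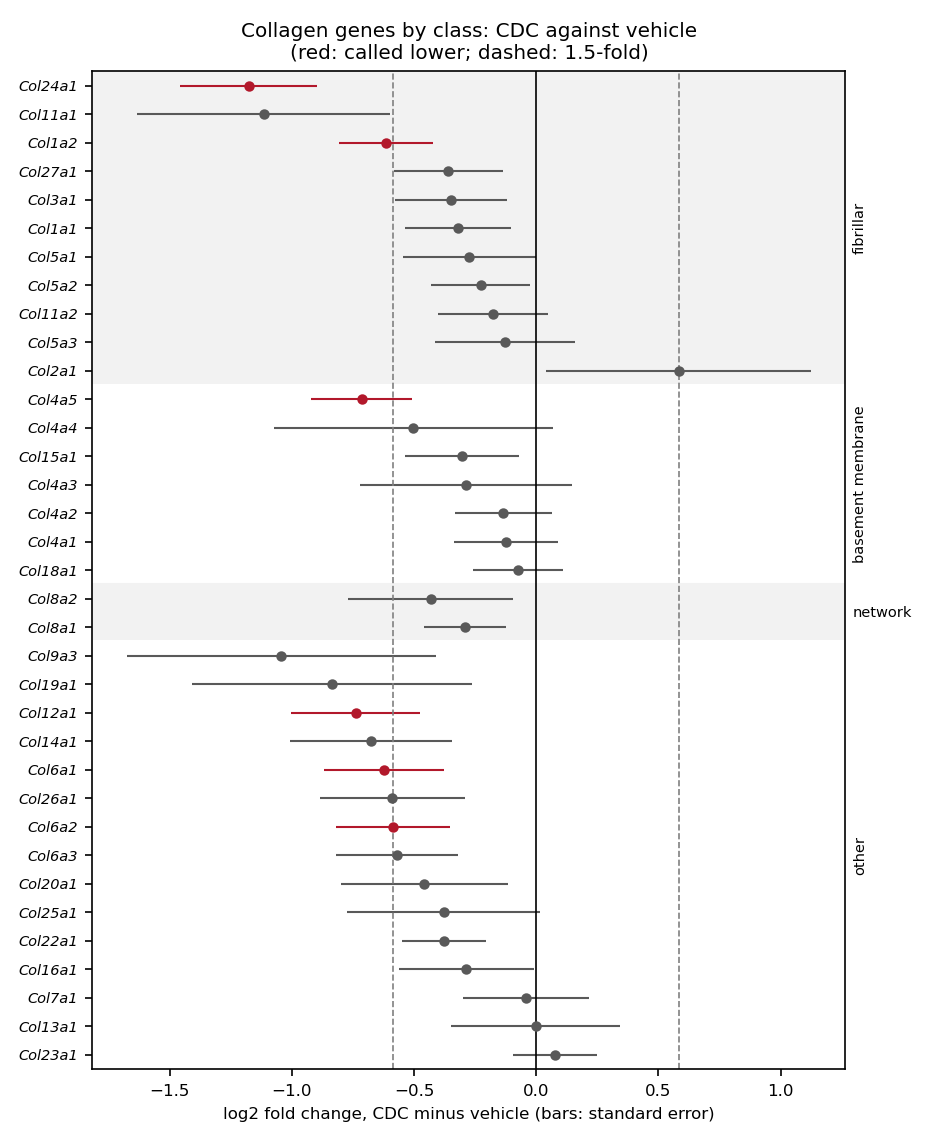
Log2 fold change (mCDC minus vehicle) of the 35 tested collagen genes by class, with standard errors as bars and dashed lines at 1.5-fold. The 6 genes in red were called lower, and 33 of the 35 points lie below 0.

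Among the tested collagen genes, the fibrillar class had the largest single change. Col24a1, a minor fibrillar chain, had 3.48 and 4.29 CPM after mCDCs and 6.75 and 10.8 CPM after vehicle, with replicate 1 first in each pair. The groups did not overlap, and each vehicle library stood above both mCDC libraries. Its mean was 3.89 ± 0.57 CPM (SD, n = 2) after mCDCs and 8.76 ± 2.84 (SD, n = 2) after vehicle, and its log2 fold change was -1.18 (standard error 0.28, adjusted p = 0.567). The call held without each library in turn, with log2 fold changes from -1.47 to -0.80, and after removal of the trend, at -1.08. Its adjusted p was between 0.0465, from the likelihood ratio test, and 0.774, without a filter on low counts. Col1a2, the second chain of type I collagen, had 64.5 and 58.4 CPM after mCDCs and 76.3 and 112 CPM after vehicle. The groups were apart, and the log2 fold change was -0.61 (standard error 0.19, adjusted p = 0.643). The value for Col1a2 was -0.31 without vehicle replicate 2 and -0.57 after removal of the trend, and it was called in neither. Without mCDC replicate 2 it was -0.54 and was not called.

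Promoter windows of 5 of the 6 called genes, all but Col12a1, are shown because these genes were lower in the same muscles. They are stretches of 300 bases, 5′ to 3′ on the gene's strand, from before to just after a start that RefSeq annotates (GRCm38.p6). The start used for Col4a5 is chrX:141475419, while the annotated gene begins at chrX:141475370. Windows were found for 35 of the 44 collagen genes. Capitals mark exact matches on either strand to TATAAA, to CCAAT, the sequence that the factor NF-Y binds, or to GGGCGG, the GC box that Sp1 binds, and no 2 matches overlapped. The Col1a2 window lies at chr6:4505368-4505667 on the plus strand, that of Col24a1 at chr3:145292222-145292521 on the plus strand, that of Col4a5 at chrX:141475169-141475468 on the plus strand, that of Col6a1 at chr10:76725995-76726294 on the minus strand and that of Col6a2, at its outermost start, at chr10:76623581-76623880 on the minus strand.
Col1a2: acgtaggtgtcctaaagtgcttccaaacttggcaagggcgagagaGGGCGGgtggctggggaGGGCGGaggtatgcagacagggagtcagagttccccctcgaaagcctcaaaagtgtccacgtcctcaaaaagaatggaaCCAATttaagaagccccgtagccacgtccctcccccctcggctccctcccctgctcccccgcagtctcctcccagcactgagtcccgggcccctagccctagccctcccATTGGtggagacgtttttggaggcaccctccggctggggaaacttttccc
Col24a1: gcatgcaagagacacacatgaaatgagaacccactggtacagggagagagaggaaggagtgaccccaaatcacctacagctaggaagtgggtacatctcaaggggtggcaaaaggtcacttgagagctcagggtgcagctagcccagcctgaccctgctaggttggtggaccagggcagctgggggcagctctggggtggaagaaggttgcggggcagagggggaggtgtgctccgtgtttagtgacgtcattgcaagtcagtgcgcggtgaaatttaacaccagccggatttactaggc
Col4a5: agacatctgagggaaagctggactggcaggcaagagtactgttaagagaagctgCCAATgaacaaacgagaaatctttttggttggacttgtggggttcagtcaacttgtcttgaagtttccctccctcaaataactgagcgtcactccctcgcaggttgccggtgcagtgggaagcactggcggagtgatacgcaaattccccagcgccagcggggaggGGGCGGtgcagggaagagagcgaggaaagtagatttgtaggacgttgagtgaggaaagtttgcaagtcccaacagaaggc
Col6a1: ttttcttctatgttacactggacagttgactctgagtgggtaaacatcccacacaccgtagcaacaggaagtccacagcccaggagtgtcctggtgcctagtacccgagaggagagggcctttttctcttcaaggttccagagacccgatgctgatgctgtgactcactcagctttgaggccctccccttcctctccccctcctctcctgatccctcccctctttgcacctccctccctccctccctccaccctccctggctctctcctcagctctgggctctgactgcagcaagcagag
Col6a2: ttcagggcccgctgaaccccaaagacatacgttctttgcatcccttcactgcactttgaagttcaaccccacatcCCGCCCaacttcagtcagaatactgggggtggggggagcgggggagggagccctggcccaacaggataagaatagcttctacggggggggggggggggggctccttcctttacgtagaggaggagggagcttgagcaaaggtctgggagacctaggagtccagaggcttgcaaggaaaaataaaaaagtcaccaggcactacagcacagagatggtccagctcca

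The Col1a2 window holds 2 CCAAT and 2 GGGCGG matches, Col4a5 holds 1 of each, Col6a2 holds 1 GGGCGG match, and the Col24a1 and Col6a1 windows hold none of the 3 motifs. The 5 windows thus share no motif of this set. Among the windows of all 27025 genes, 38.0% hold CCAAT, 35.9% GGGCGG and 14.2% TATAAA, and among the 35 collagen windows 12, 22 and 5 do. A match is a stretch of letters and was not measured as a binding site.

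Apart from Col1a2, the major fibrillar chains were not called. Col1a1, the first chain of type I collagen, had 68.9 and 64.3 CPM after mCDCs and 63.3 and 103 CPM after vehicle. Col3a1 had 105 and 85.7 CPM against 92.2 and 151 CPM. For both genes the groups overlapped, since vehicle replicate 1 fell below or between the mCDC libraries and vehicle replicate 2 stood apart. Their log2 fold changes were -0.32 (standard error 0.22, adjusted p = 0.767) and -0.35 (standard error 0.23, adjusted p = 0.767), and they were 0.071 and 0.049 without vehicle replicate 2. Type V collagen, which nucleates type I fibrils and sets their diameter, followed the same order. Col5a1 had 22.5 and 16.6 CPM against 17.2 and 30.0 CPM, Col5a2 had 21.3 and 18.04 against 19.2 and 26.9, and Col5a3 had 31.6 and 22.1 against 20.8 and 37.9. These 3 genes overlapped between the groups, and their log2 fold changes were -0.27 (standard error 0.27, adjusted p = 0.827), -0.23 (standard error 0.20, adjusted p = 0.811) and -0.13 (standard error 0.29, adjusted p = 0.931).

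Col11a1, a fibrillar chain of cartilage and tendon, was low, with 10 and 9 counts after mCDCs and 29 and 17 after vehicle. These counts did not overlap, and edgeR's quasi-likelihood test did not call the gene, at -1.12 (standard error 0.52, adjusted p = 0.724). The likelihood ratio test called it lower, also at -1.12. It was -1.48 and called without vehicle replicate 2, and -0.64 and not called without vehicle replicate 1. It passed the low-count filter only through the vehicle libraries. Its partner Col11a2 had a log2 fold change of -0.18 and overlapped. Col27a1, another minor fibrillar chain, had 4.32 and 4.71 CPM against 5.34 and 6.22 CPM and did not overlap, at -0.36. Col2a1, the chain of cartilage type II collagen, was the only tested member with both mCDC libraries above both vehicle libraries, at 0.530 and 0.594 CPM against 0.267 and 0.473, from 7 to 14 counts per library. Its log2 fold change was 0.58 (standard error 0.54, adjusted p = 0.820), and ran from 0.25 to 1.05 when 1 library was left out. It passed the low-count filter only through the mCDC libraries, where it was high. The 11 fibrillar genes were all tested, and 2 were called lower, against 2.74% of all tested genes. The class had a median log2 fold change of -0.32. That median was 0.033 without vehicle replicate 2 and -0.19 after removal of the trend.

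In the basement membrane class, 1 of 7 tested genes was called lower, against 2.74% of all tested genes, and the most abundant chains overlapped between the groups. Col4a1 and Col4a2, which form the heterotrimer of all basement membranes, had log2 fold changes of -0.12 (standard error 0.21, adjusted p = 0.901) and -0.13 (standard error 0.20, adjusted p = 0.884). Col4a1 had 74.4 and 75.1 CPM after mCDCs and 62.5 and 100.5 CPM after vehicle. Col4a2 had 81.0 and 86.6 CPM against 72.7 and 111 CPM. For both genes vehicle replicate 1 was the lowest library and vehicle replicate 2 the highest, so the mCDC libraries lay inside the range of the vehicle libraries. Without vehicle replicate 2 the 2 values were 0.26 and 0.20, in the opposite direction.

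Col4a1 and Col4a2 lie head to head on chromosome 8, and their windows are shown because they share sequence. The Col4a1 window is at chr8:11312777-11313076 on the minus strand and the Col4a2 window at chr8:11312555-11312854 on the plus strand. The start used for Col4a1 is chr8:11312826, while the annotated gene reaches chr8:11312889. Capitals mark the 78 bases, chr8:11312777-11312854, that lie in both windows, read from opposite strands. The annotated genes overlap by 85 bases, chr8:11312805-11312889, where a read could come from either gene if strand was not used in counting.
Col4a1: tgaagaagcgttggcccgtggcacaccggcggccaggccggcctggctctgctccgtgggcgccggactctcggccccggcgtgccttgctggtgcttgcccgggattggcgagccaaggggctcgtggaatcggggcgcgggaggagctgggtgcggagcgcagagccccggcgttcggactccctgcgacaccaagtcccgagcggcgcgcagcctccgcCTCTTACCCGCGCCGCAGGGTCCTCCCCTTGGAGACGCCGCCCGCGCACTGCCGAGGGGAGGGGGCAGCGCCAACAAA
Col4a2: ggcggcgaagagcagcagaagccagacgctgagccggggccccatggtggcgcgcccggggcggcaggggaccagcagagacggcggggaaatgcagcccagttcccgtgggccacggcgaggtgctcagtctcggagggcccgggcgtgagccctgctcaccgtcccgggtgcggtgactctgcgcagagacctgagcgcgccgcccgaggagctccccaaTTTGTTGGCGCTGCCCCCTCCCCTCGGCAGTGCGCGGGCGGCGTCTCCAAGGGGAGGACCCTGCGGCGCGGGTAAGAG

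The ratio of Col4a2 to Col4a1, per length of the mean annotated transcript, stayed close in all libraries, at 0.469 and 0.496 after mCDCs and 0.501 and 0.477 after vehicle, so the groups overlapped. With the longest transcript as the length, the mean over libraries was 1.16 in place of 0.486.

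Col4a5, a chain of the type IV trimers that replace the common one in specialised basement membranes, was called lower. It had 14.5 and 10.004 CPM after mCDCs and 20.4 and 19.8 CPM after vehicle. The groups did not overlap, and here the 2 vehicle libraries were alike. The log2 fold change was -0.71 (standard error 0.21, adjusted p = 0.629), it was -0.69 and -0.74 without vehicle replicates 1 and 2, and it was -0.47 and not called without mCDC replicate 2. After removal of the trend it was -0.56 and was not called. The other chains of those trimers were near the detection limit, with 16 to 34 counts of Col4a3, 7 to 20 of Col4a4 and 4 to 10 of Col4a6 per library, and Col4a6 was not tested. Col15a1 and Col18a1 encode the multiplexins, whose ends can be released as the fragments restin and endostatin. Col15a1 had 21.3 and 24.2 CPM against 21.3 and 34.9 CPM, and Col18a1 had 10.1 and 9.04 CPM against 9.69 and 10.5 CPM. Both overlapped, with log2 fold changes of -0.30 (standard error 0.23, adjusted p = 0.782) and -0.08 (standard error 0.18, adjusted p = 0.937). Col15a1 was -0.61 and called without vehicle replicate 1, and 0.096 without vehicle replicate 2. The median of the class was -0.29, and it was 0.066 without vehicle replicate 2 and -0.14 after removal of the trend.

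The network class holds the type VIII and type X chains, which form hexagonal lattices. Col8a1 had 15.7 and 17.6 CPM after mCDCs and 18.97 and 21.8 CPM after vehicle. These values did not overlap, and the log2 fold change was -0.29 (standard error 0.17, adjusted p = 0.747) without a call. It was -0.13 after removal of the trend. In 3 libraries its expected counts were not whole within 0.005, as RSEM gives where reads fit more than 1 gene, and Col9a3 was the only other collagen with such a count, in vehicle replicate 2. Col8a2 had 1.44 and 1.14 CPM against 1.98 and 1.53 CPM and did not overlap either, at -0.43 (standard error 0.34, adjusted p = 0.785), with values from -0.62 to -0.23 when 1 library was left out. Col10a1, the chain of hypertrophic cartilage, had 4 to 13 counts per library and was not tested. In this class 0 of 2 tested genes were called with edgeR's quasi-likelihood test, 0 had an unadjusted p under 0.05, and DESeq2 and edgeR's likelihood ratio test called 0.

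Among the other chains, type VI collagen was the most abundant, and all 3 of its main chains had lower values in mCDC muscles. Mutations of these chains cause muscle disease in humans. Col6a1 had 30.3 and 24.8 CPM after mCDCs and 31.4 and 53.4 CPM after vehicle. Col6a2 had 29.4 and 25.8 CPM against 31.2 and 51.7 CPM, and Col6a3 had 19.5 and 21.2 CPM against 21.9 and 38.5 CPM. For all 3 genes the groups did not overlap, but vehicle replicate 1 lay just above the mCDC libraries and vehicle replicate 2 far above them. The log2 fold changes were -0.62 (standard error 0.25, adjusted p = 0.713), -0.59 (standard error 0.23, adjusted p = 0.713) and -0.57 (standard error 0.25, adjusted p = 0.713), and Col6a3 fell short of the call. Col6a2 lay at the edge of the 1.5-fold limit, and it was not called with RLE size factors, with DESeq2 or with libraries thinned to the smallest, at -0.58, -0.57 and -0.58. Without vehicle replicate 2 they were -0.19, -0.18 and -0.11, and none of the 3 was called. Without vehicle replicate 1 they were -0.95, -0.90 and -0.91, and all 3 were called lower. Without mCDC replicate 2, Col6a1 and Col6a2 were at -0.48 and -0.49 and were not called, while Col6a3, at -0.63, was. After removal of the trend they were -0.54, -0.50 and -0.41, and none was called. The ratio of Col6a2 to Col6a1 per mean transcript length was 0.925 and 0.992 after mCDCs and 0.946 and 0.923 after vehicle. The further type VI genes Col6a4, Col6a5 and Col6a6 had 0 to 12 counts per library and were not tested.

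Of 9 FACITs 7 were tested, 1 was called lower, against 2.74% of all tested genes, and the median log2 fold change was -0.68. It was -0.57 over the 6 genes other than Col9a3, which passed the low-count filter only through the vehicle libraries, and -0.099 over the 6 genes tested without vehicle replicate 2. Col12a1, which coats fibrils in tendon, fascia and muscle, had 3.11 and 4.02 CPM after mCDCs and 6.83 and 5.02 CPM after vehicle. The groups did not overlap, and vehicle replicate 1 was the highest library. The log2 fold change was -0.74 (standard error 0.26, adjusted p = 0.685). It was -0.94 without vehicle replicate 2 and -0.49 without vehicle replicate 1, where it was not called. It was -0.56 and not called without mCDC replicate 1, and -0.54 and not called after removal of the trend. Col14a1, a related FACIT, had 3.18 and 1.69 CPM against 3.55 and 4.33 CPM and did not overlap, at -0.68 (standard error 0.33, adjusted p = 0.726). Col22a1, the FACIT of the myotendinous junction, had 26.96 and 30.8 CPM against 32.9 and 42.1 CPM and did not overlap, at -0.38 (standard error 0.17, adjusted p = 0.724). Neither of the 2 was called. Without mCDC replicate 1, Col14a1 was called at -1.22, while it was -0.31 without mCDC replicate 2. Col22a1 was -0.19 without vehicle replicate 2. Col16a1 and Col20a1 overlapped, at -0.29 and -0.46, and both were above 0 without vehicle replicate 2, at 0.13 and 0.19. Without vehicle replicate 1 they were -0.60 and -0.90, and both were called lower. Col19a1 was at 0.454 and 0.457 CPM in the mCDC libraries, 0.458 CPM in vehicle replicate 1 and 1.16 CPM in vehicle replicate 2. Its log2 fold change was -0.84, and it was -0.0086 without vehicle replicate 2 and -1.34, with a call, without vehicle replicate 1. Col9a3 had 9 and 4 counts against 10 and 19.5, a log2 fold change of -1.04 (standard error 0.63), while Col9a1 and Col9a2 had 5 counts or fewer and were not tested.

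The transmembrane collagens and the anchoring fibril chain overlapped between the groups. Col23a1, a transmembrane collagen, had 21.6 and 17.7 CPM after mCDCs and 17.7 and 19.5 CPM after vehicle, at 0.08 on the log2 scale (standard error 0.17, adjusted p = 0.929). Col13a1, the transmembrane collagen of the neuromuscular junction, had 1.40 and 1.19 CPM against 1.14 and 1.46 CPM, and its log2 fold change was -0.0020 (standard error 0.35), from -0.16 to 0.18 with 1 library left out. Col25a1, which motor axons need to innervate muscle, had 1.48 and 0.777 CPM against 1.60 and 1.38 CPM, at -0.38 (standard error 0.39), and at -0.94 without mCDC replicate 1 and -0.013 without mCDC replicate 2. All 3 overlapped between the groups. Col7a1, the chain of anchoring fibrils, had 35.8 and 19.6 CPM against 29.0 and 28.2 CPM, at -0.04 (standard error 0.26), with the mCDC libraries on either side of the vehicle libraries. It was -0.55 without mCDC replicate 1, 0.33 without mCDC replicate 2 and 0.099 after removal of the trend. Col26a1 had 4.77 and 2.83 CPM against 5.07 and 6.44 CPM and did not overlap, at -0.59 (standard error 0.30, adjusted p = 0.728), without a call. It was -1.02 and called without mCDC replicate 1, and -0.27 without mCDC replicate 2. Col17a1, a hemidesmosome collagen of epithelia, had 26 and 3 counts after mCDCs and 2 and 9 after vehicle, so that it was highest in mCDC replicate 1. The keratinocyte markers Krt5, Krt14 and Krt1 had 63, 30 and 25 counts in that library and 0 to 1 in the other 3, and their part in the Col17a1 and Col7a1 values was not tested. Col28a1 had 0 to 4 counts. Over the 15 tested genes of the class, 3 were called lower, against 2.74% of all tested genes. The class median was -0.57, and it was -0.087 without vehicle replicate 2.

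**Figure D3:**
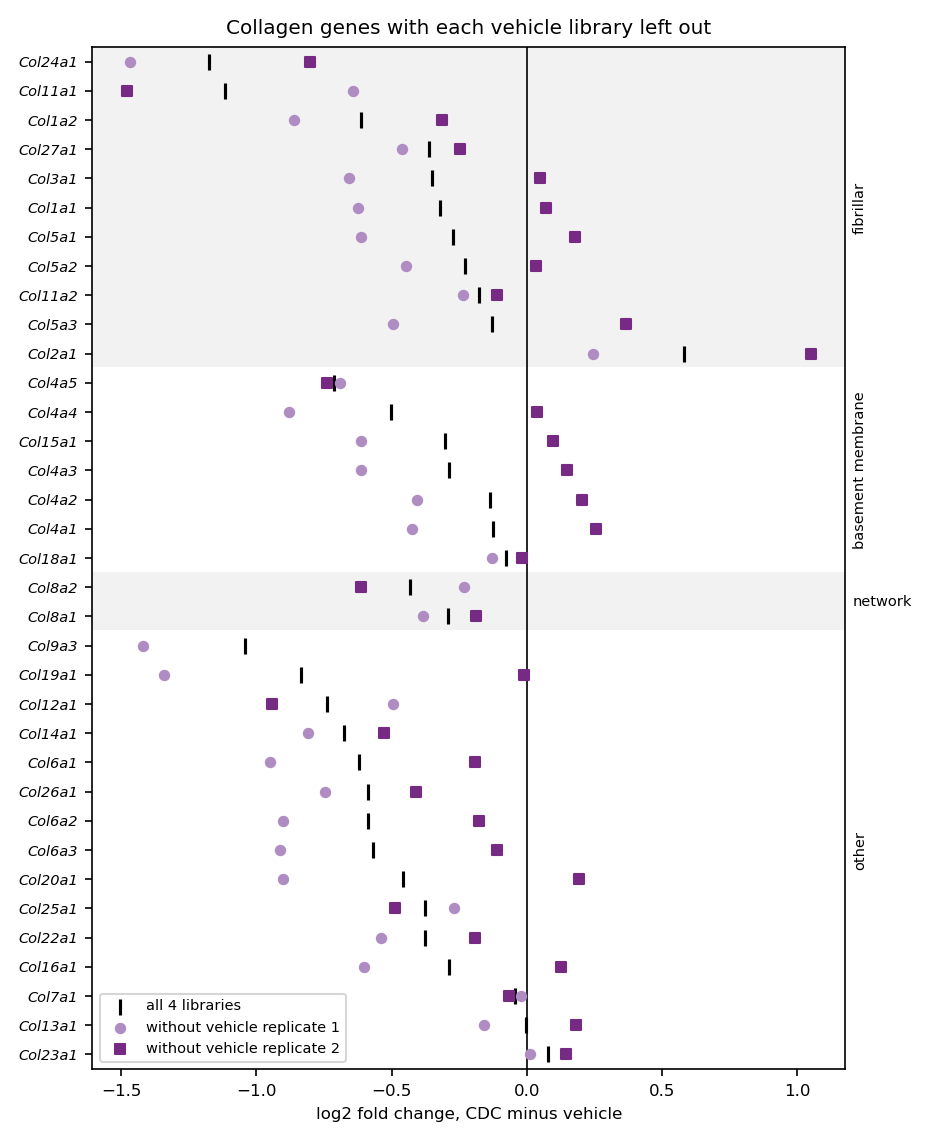
Log2 fold change (mCDC minus vehicle) of the tested collagen genes with all 4 libraries and with each vehicle library left out. Without vehicle replicate 2 the median moved from -0.36 to -0.018, and Col24a1, Col4a5 and Col12a1 stayed called lower; Col9a3 was not tested there and has no square.

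The balance of the 2 type I chains was compared within each library. Col1a2 to Col1a1, per mean transcript length, was 1.79 and 1.74 after mCDCs and 2.31 and 2.08 after vehicle. These ratios did not overlap, at 1.76 ± 0.04 (SD, n = 2) against 2.19 ± 0.16 (SD, n = 2), with the smallest two-sided p that an exact permutation test of 2 against 2 allows, 0.333. With the longest transcript the ratios were 1.04 and 1.008 against 1.34 and 1.204, in the same order. Of 7 chain ratios this was the 1 without overlap, a share no higher than among single genes, of which 19.4% did not overlap in this direction and 19.2% in the other. The ratios of Col6a1 to Col6a3, Col6a2 to Col6a3, Col5a2 to Col5a1 and Col8a2 to Col8a1 had means over the 4 libraries of 2.24, 2.12, 0.722 and 0.181 per mean transcript length.

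Summed markers of fibroblasts and of endothelial cells were highest in vehicle replicate 2 as well. The 12 fibroblast and fibro-adipogenic progenitor markers, all tested, summed to 634 and 510 CPM after mCDCs and to 609 and 979 CPM after vehicle. All 12 had a log2 fold change below 0, against 51.6% of all tested genes. Lum, Pdgfra and Smoc2 were called lower, at -1.02, -0.74 and -0.69, where 2.74% of all tested genes were. Without vehicle replicate 2 these were -0.47, -0.23 and -0.28, and none was called. Pdgfra and Smoc2 were not called without mCDC replicate 2 either, both at -0.57. Pdgfra also lost its call without a count filter, with the replicate block and with the trend removed, at -0.74, -0.69 and -0.66. The 8 endothelial markers summed to 147 and 117 CPM against 120 and 266 CPM, with a median log2 fold change of -0.53. Summed fibrillar collagen per summed fibroblast marker was 0.516 and 0.550 after mCDCs and 0.505 and 0.495 after vehicle, and basement membrane collagen per summed fibroblast marker was 0.320 and 0.405 against 0.309 and 0.285. Type VI collagen per summed fibroblast marker was 0.1249 and 0.141 against 0.139 and 0.147. On this scale both mCDC libraries lay above both vehicle libraries for the fibrillar and basement membrane classes, and the type VI values overlapped. This order depends on Gsn, which alone gave 337 and 243 CPM of the marker sum after mCDCs and 334 and 482 CPM after vehicle. None of the defining markers was at 0, and the part of these cells in the collagen values was not tested.

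**Figure D4:**
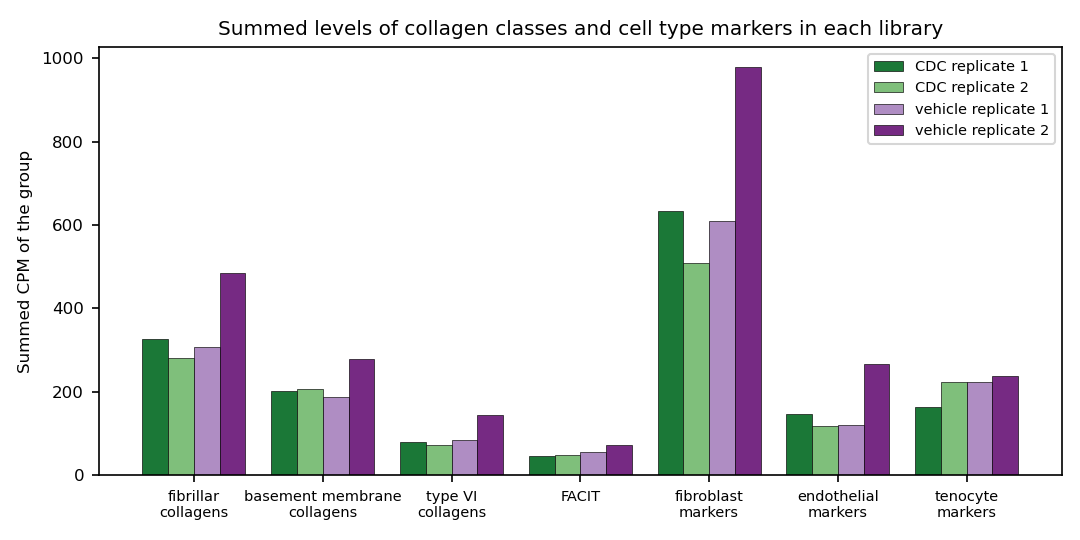
Summed CPM of 4 collagen groups and 3 cell type marker lists in each library, with 1 bar per library and an axis from 0. Fibrillar collagens reached 485 CPM and fibroblast markers 979 CPM in vehicle replicate 2, above the other 3 libraries.

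Tenocyte markers are given beside Col12a1, Col22a1 and Col11a1, which tendon cells also express. Of 8 tenocyte markers, 7 were tested and 5 were below 0, against 51.6% of all tested genes. For 4, both mCDC libraries lay below both vehicle libraries, against 19.4% of all tested genes, and the median was -0.43. Calls went both ways, where 2.74% of all tested genes were called lower and 1.26% higher. Tnmd and Fmod were called lower, at -1.36 and -0.97, and Scx, the transcription factor of tendon progenitors, was called higher at 0.86. Tnmd and Scx kept their calls without each library in turn, while Fmod was -0.54 without mCDC replicate 1 and -0.66 without vehicle replicate 1, and was called in neither. The list summed to 163 and 222 CPM after mCDCs and 223 and 239 CPM after vehicle. The cartilage marker Comp was called lower at -0.76, with 11.2 and 9.82 CPM after mCDCs and 19.7 and 15.8 CPM after vehicle. Without vehicle replicate 1 Comp was -0.58 and was not called. The only other tested cartilage marker, Sox9, went the other way at 0.53 without a call, and the median of the 2 was -0.11. The untested Acan, Lect1, Matn1, Matn3 and Hapln1 had 0 to 6 counts per library. How much tendon each muscle held was not tested.

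The genes that modify, fold and export collagen had medians near 0. Of 15 genes that modify prolines and lysines of collagen, 15 were tested, 0 were called with edgeR's quasi-likelihood test, and 0 had an unadjusted p under 0.05. Of all tested genes, 2.74% were called lower and 1.26% higher. In this list 7 were below 0, against 51.6% of all tested genes, with a median log2 fold change of 0.0031. The smallest p belonged to Colgalt2, a collagen galactosyltransferase, with 2.50 and 2.38 CPM against 2.79 and 5.75 CPM, at -0.81 (standard error 0.36, adjusted p = 0.724), and to Crtap, a subunit of the prolyl 3-hydroxylase complex, at -0.47 (standard error 0.22, adjusted p = 0.724). Colgalt2 was called by the likelihood ratio test and, at -1.23, without vehicle replicate 1, and was -0.19 without vehicle replicate 2. Of 18 genes of folding, export and propeptide removal, 15 were tested, 0 were called with edgeR's quasi-likelihood test, 0 had an unadjusted p under 0.05, and the median was -0.089. Pcolce, which speeds removal of the C-propeptide, had a log2 fold change of -0.35, and Tmem38b, an endoplasmic reticulum cation channel, one of 0.21. Pcolce was -0.64 and called lower without vehicle replicate 1, and 0.015 without vehicle replicate 2, while Tmem38b ran from 0.068 to 0.34 with 1 library left out. DESeq2 called 0 genes of these 2 lists.

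Of 13 collagen receptors and uptake genes, 11 were tested, with a median log2 fold change of -0.26. Of all tested genes, 1.26% were called higher and 2.74% lower. Cspg4, a proteoglycan that binds type VI collagen, was called higher, with 61.7 and 105 CPM after mCDCs and 51.8 and 56.2 CPM after vehicle. Its log2 fold change was 0.63 (standard error 0.23, adjusted p = 0.705), and it was not called without mCDC replicate 2, at 0.19, without vehicle replicate 1, at 0.57, or without vehicle replicate 2, at 0.68. Without mCDC replicate 1 it was 0.96 and called. Mrc2, the receptor that takes up collagen fragments, had 10.2 and 13.2 CPM against 13.1 and 17.8 CPM, at -0.40 (standard error 0.22, adjusted p = 0.737). It was -0.60 and called lower without vehicle replicate 1, and -0.16 without vehicle replicate 2.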

How the data were processed

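RNA from 4 soleus muscles, 2 from mdx mice that had received mCDCs and 2 from vehicle mice, had been sequenced, and the authors deposited 1 table of RSEM expected counts per gene symbol. The submitters' processing notes name Bowtie2 2.1.0 and RSEM 1.2.15. The sample labels name a TruSeq Stranded mRNA kit and the paper's methods an xGen Broad-Range kit. The strand setting of the counting is not given in the sources used here. These values were rounded to integers, filtered with filterByExpr, scaled with TMM and tested with the quasi-likelihood test of edgeR 4.0.16 (R 4.3.3), with groups taken from the sample labels. A call needed an unadjusted p under 0.05 and a change of more than 1.5-fold. CPM were computed on the TMM-scaled libraries, and the standard error was the log2 fold change divided by the root of F. Any collagen gene could be named, and full statistics were given for called genes, for the chains of the main assemblies of muscle matrix and for the gene of smallest p in each class and direction. Of the pathway lists, called genes and the 2 of smallest p in each list were named. Called genes of the marker lists were named after their values were seen. The labels do not tie the replicates to separate cultures or litters, so p-values measure the spread between these samples. The members and lists were chosen with earlier results of these data known. Totals were 22481391 to 27187425 expected counts, and 15.7% of values were not whole before rounding. Alternatives were RLE size factors, other count filters, DESeq2 1.42.0, the likelihood ratio test, a replicate block, a fit without each library's trend on transcript length and GC, thinning, and leaving out each library. The pipeline was tested on simulated data. The replicate numbers were checked for pairing by the correlation of deviations from the group means.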

Additional observations from a re-analysis of the deposited data

How the results depend on the processing

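Beside the 6 collagen genes called lower, 1 was called after removal of the length and GC trend, with or without the replicate block, and 3 to 13 were without 1 library, where 0 to 1 were called higher. The replicate block alone gave 4 lower calls, without Col6a1 and Col6a2 (-0.58 and -0.55), where 2.26% of all genes were called lower, and 1.99% were with block and trend. The deviations of the replicates numbered 1 correlated at -0.04 over all tested genes. The labels name no pairing, and this value cannot exclude one that moves only some genes, so the block is an assumption. Median log2 fold changes without 1 library ran from -0.60 to -0.018 over all tested collagens, -0.61 to 0.033 for fibrillar, -0.52 to 0.066 for basement membrane, -0.62 to -0.38 for network and -0.60 to -0.087 for other chains. The network median was -0.43 with no count filter and with DESeq2, and -0.29 with the trend removed, with or without the block. With the trend removed, and then with the block as well, the fibrillar median was -0.19 and -0.17, that of basement membrane chains -0.14 and -0.11, and that of other chains -0.41 and -0.36. Of the modification, export and receptor genes, 2 were called by the likelihood ratio test, 0 with the block (Cspg4 at 0.58, against 0.63) and 0 to 7 without 1 library. Of all genes, 348 to 1107 were called without 1 library, against 546, and calls in the higher direction made up 31.5%, and 41.2% with the trend removed. Per longest transcript, chain ratios were 1.15 (Col1a2 to Col1a1), 1.16 (Col4a2 to Col4a1), 3.41 (Col6a1 to Col6a3), 2.98 (Col6a2 to Col6a3), 0.875 (Col6a2 to Col6a1), 1.28 (Col5a2 to Col5a1) and 0.0976 (Col8a2 to Col8a1). With the trend removed, Col5a3 turned to 0.0012, and with the block as well to 0.020 and Col4a2 to 0.014. Signs also turned without 1 library, among others with ranges of -0.55 to 0.33 for Col7a1, -0.16 to 0.18 for Col13a1, -0.61 to 0.096 for Col15a1, -0.16 to 0.0020 for Col18a1, -0.63 to 0.071 for Col1a1, -0.075 to 0.22 for Col23a1, -0.66 to 0.049 for Col3a1, -0.42 to 0.26 for Col4a1, -0.41 to 0.20 for Col4a2, -0.61 to 0.15 for Col4a3, -0.88 to 0.037 for Col4a4, -0.61 to 0.18 for Col5a1, -0.45 to 0.033 for Col5a2 and -0.49 to 0.37 for Col5a3. The cause of these changes was not tested. A group of 2 libraries left with 1 was assumed to vary like the other group. Col2a1, Col9a3 and Col11a1 had at most 14, 19.5 and 29 counts in any library, which limits their precision.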

Other observations

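Lists of other cell types were summed as values only. Of all tested genes, 51.6% were below 0, 2.74% were called lower and 1.26% were called higher. Pericyte and smooth muscle markers summed to 349 and 320 CPM after mCDCs and 312 and 367 CPM after vehicle, with 4 of 8 tested genes below 0 and a median of -0.017. Of the 8, 1 was called, Rgs5 at -0.60. Rgs5 was -0.54 without mCDC replicate 2 and -0.52 with the trend removed, and was called in neither. Macrophage markers summed to 35.6 and 43.9 CPM against 30.3 and 46.1 CPM, with 5 of 8 tested genes below 0 and a median of -0.17. Cd68 was called higher at 1.49, and was not called without mCDC replicate 2, at 0.27, or without vehicle replicate 1 or 2, at 1.23 and 1.84. Csf1r was called lower at -0.67, and was -0.50 without mCDC replicate 2 and -0.30 without vehicle replicate 2, with a call in neither. With the replicate block, at -0.64, and without a count filter, at -0.67, Csf1r was not called either. DESeq2 called neither Csf1r, at -0.66, nor Cd68, at 1.52. Schwann cell markers summed to 66.8 and 70.9 CPM against 66.0 and 89.5 CPM, adipocyte markers to 37.8 and 36.1 CPM against 64.7 and 17.7 CPM, and erythroid genes to 255 and 265 CPM against 216 and 423 CPM. Satellite cell markers summed to 70.3 and 67.8 CPM against 72.6 and 35.9 CPM, with 2 of 5 tested genes below 0 and a median of 0.034. Of these, Pax7 was called higher at 0.76, and was called neither without vehicle replicate 2, at 0.65, nor without mCDC replicate 1 or 2, at 0.73 and 0.79. DESeq2 did not call Pax7 either, at 0.77. Cartilage markers summed to 51.3 and 44.2 CPM against 57.3 and 30.0 CPM, nearly all of it from Sox9 and Comp. Keratinocyte markers summed to 25.4 and 20.7 CPM against 19.8 and 16.2 CPM, most of it from Trp63 with 12.3 to 16.6 CPM. Genes of the synaptic myonucleus summed to 303 and 324 CPM against 294 and 268 CPM.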
